A study of Drosophila melanogaster with 12 samples.

Results

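The genes described here encode seminal fluid proteins, the secreted products that a male fly passes to the female together with sperm. They were taken by gene symbol: every gene named Acp or Sfp with a cytological position, plus Mst57Da, Mst57Db and Mst57Dc, leaving out the cuticle gene Acp65Aa. The rule gave 48 of the 16997 genes in the tables, of which 17 were Acp genes, 28 were Sfp genes and 3 were Mst57D genes. The rule used names only, so that the levels below played no part in choosing the genes.

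RNA came from whole flies that were 1 day old, with 10 flies in each sample and 4 samples in each of 3 groups. Ub6-GG flies expressed a head-to-tail ubiquitin chain that cannot be dismantled and whose terminal glycines allow it to be joined to other proteins, and Ub6-Stop flies expressed the same kind of chain without those glycines. Both transgenes were inserted at Attp40, were heterozygous, and were driven by a single copy of sqh-Gal4, which follows the promoter of the myosin light chain gene spaghetti squash and is active in all tissues. Control flies carried the driver on the genetic background of the Ub6 flies and had no Ub6 transgene. The sex of the flies in a sample is not given in the labels.

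The tables hold 0 columns of values for single samples. What they hold beside the authors' own comparisons, which are not used here, is the mean log2 CPM, the authors' mean over all 12 libraries of reads scaled to library size (CPM) on a log2 scale. Every level below is therefore an average over controls, Ub6-GG and Ub6-Stop together, with no spread between replicates. A difference between the groups was not tested and none is reported. Counting error is given as an exact Poisson interval at the 95% level on the reads recovered from the mean. It leaves out the spread between flies and between libraries, so it is the smallest error these levels can have.

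Seminal fluid proteins are made mainly in the accessory gland, a paired gland of the male reproductive tract, and in the ejaculatory duct and bulb. After mating they alter the female: they raise ovulation and egg laying, lower her readiness to mate again, help to place sperm in storage, and include proteases and protease inhibitors that act on one another in the ejaculate. The best known of them is sex peptide, which is kept on stored sperm with the help of a network of other proteins. Its gene is listed in the tables as SP, not as Acp70A, so that it fell outside the name rule and is described with that network.

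The recovered depth averaged 1684423 reads per library, 20213076 reads over the 12 libraries, so that 1 read in an average library was 0.594 CPM. Markers of both sexes were present in these averages. All 16 testis and sperm genes, all 13 ovary and eggshell genes and all 3 yolk protein genes were above 1 CPM, with medians of 6.99, 8.61 and 9.89 on the log2 CPM scale. How the sexes were divided among libraries could not be seen in a mean over all of them. In whole flies, fewer gland cells and less RNA per gland cell cannot be told apart.

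The seminal fluid protein genes were well represented in the RNA of 1-day-old flies. Of the 48 genes, 47 were above 1 CPM once the prior count was removed, a share of 97.9%, against 67.8% of all genes and 77.6% of the 12565 protein-coding genes matched to the annotation. Their median mean log2 CPM was 4.96, with the 25th and 75th percentiles at 3.70 and 7.89. For all genes these values were 2.64, 0.65 and 4.56. Above 10 CPM lay 38 members, above 100 CPM 20, and above 1000 CPM 2. Of all 16997 genes, 6565, 1290 and 164 were above these levels. Among the 1000 most abundant genes of the flies were 17 members. Together the 48 genes took 1.25% of the reads recovered over all genes (254621 of 20331823). The 95% exact binomial interval is 1.248% to 1.257%, counting error only. The total over genes is 0.587% above the recovered library total, a mismatch that the interval leaves out.

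**Figure D1:**
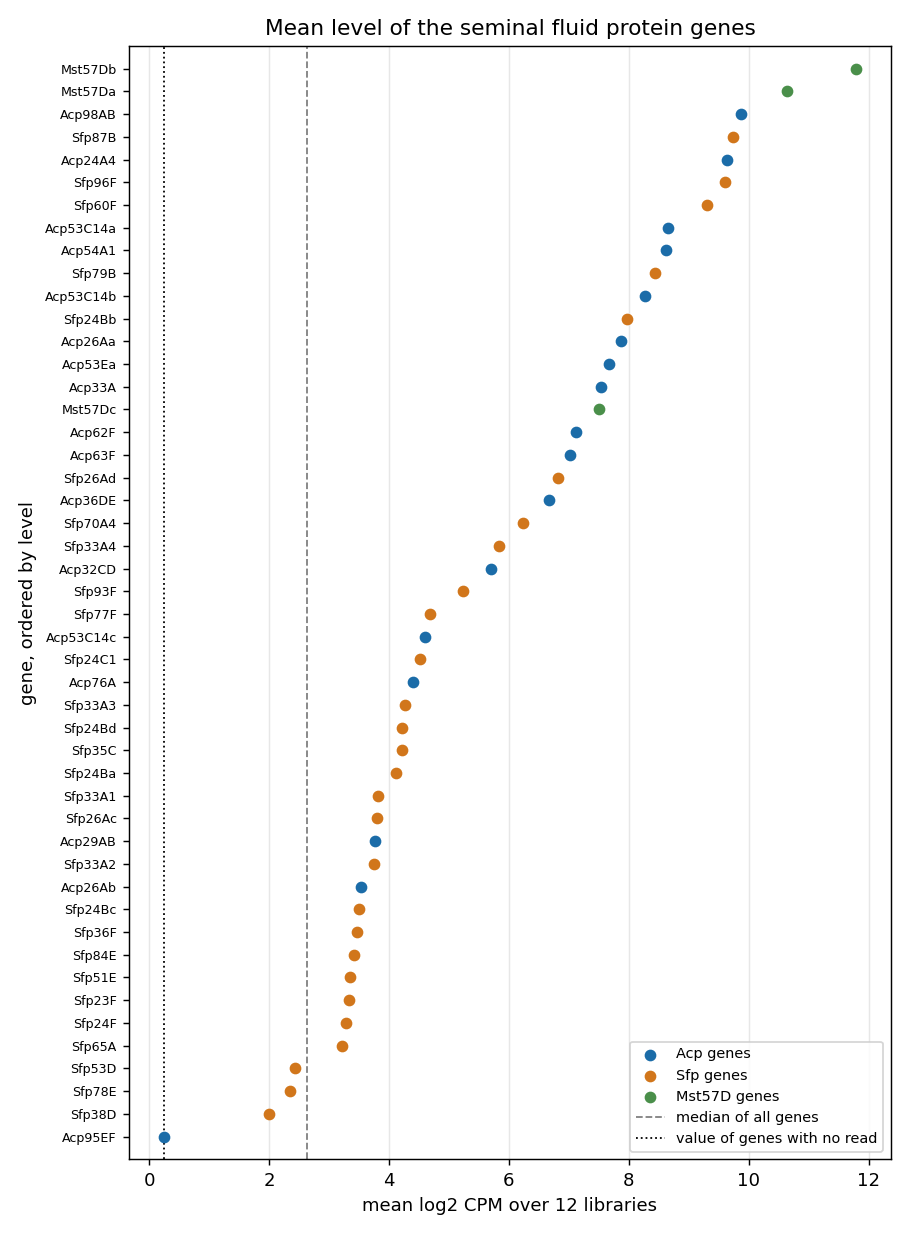
Mean log2 CPM over the 12 libraries (horizontal axis) of each of the 48 seminal fluid protein genes, ordered by level, with the name class in colour. Mst57Db stands highest at 11.79 and Acp95EF lies on the dotted line, the value of a gene with no read, while the dashed line marks the median of all genes, 2.64.

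The reads were concentrated in a few members. The first 5 genes by level held 61.2% of the members' CPM and the first 10 held 81.4%. The Mst57D genes, named as male-specific transcripts and known as products of the accessory gland, led the list. Mst57Db had a mean log2 CPM of 11.79 (3530 CPM, interval 3504 to 3556), the 25th highest value among all genes, and alone took 28.0% of the members' CPM. For comparison RpL32, which encodes a ribosomal protein that every cell uses, stood at 11.20 on the same scale. Mst57Da followed with 10.64 (1590 CPM, interval 1572 to 1607), and Mst57Dc was far lower with 7.50 (180.4 CPM, interval 174.6 to 186.4). Mst57Db thus had 2.22 times the CPM of Mst57Da and 19.6 times that of Mst57Dc. Library primers bind at the poly(A) tail, and a transcript gives reads from its 3′ end. Levels of different genes are therefore set side by side without division by length. Other differences in how well transcripts are captured or mapped were not tested. A wrongly annotated 3′ end can still cost a gene its reads.

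Next in order came Acp98AB with 9.87, Sfp87B with 9.74, Acp24A4 with 9.64 and Sfp96F with 9.60 on the log2 CPM scale. The Poisson intervals of Acp24A4 (782.1 to 806.7 CPM) and Sfp96F (762.3 to 786.6 CPM) overlapped. Neither overlap nor separation of these intervals is a test of a difference, and the order of these neighbours was not tested. Sfp60F had 9.31. Of the 47 pairs of genes next to each other in the order, 26 had overlapping intervals, 21 of them below 25 CPM. From Sfp77F (4.69) to Sfp65A (3.22), a stretch of 20 genes, each interval overlapped with the next. The order of neighbours in this stretch was not established. The intervals of its first and last gene (22.5 to 26.8 and 6.96 to 9.51 CPM) were apart.

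Among members with a known role after mating, the levels differed widely. Acp26Aa encodes ovulin, which stimulates ovulation, and its mean log2 CPM was 7.87 (232.3 CPM, interval 225.7 to 239.0). Acp36DE, a large glycoprotein needed for sperm storage, had 6.68 (101.0 CPM, interval 96.7 to 105.5). Acp62F, a protease inhibitor that also enters the female's circulation, had 7.12 (137.5 CPM, interval 132.4 to 142.7). These 3 genes were each above 92% of all genes in level.

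Other members with a role in the same processes were far less abundant. Acp29AB, a lectin that acts in sperm storage, had a mean log2 CPM of 3.76 (12.4 CPM, interval 10.9 to 14.1). Acp76A, a member of the serpin family of protease inhibitors, had 4.40 (19.9 CPM, interval 18.0 to 22.0). The intervals of Acp29AB and Acp36DE were far apart, and Acp36DE had the higher level.

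The lowest members with reads were Sfp65A with 3.22, Sfp53D with 2.44, Sfp78E with 2.35 and Sfp38D with 2.00 on the log2 CPM scale. For Sfp38D 57 reads were recovered over all 12 libraries (2.81 CPM, interval 2.14 to 3.65), and for Sfp53D and Sfp78E 85 and 79 reads. The intervals of Sfp53D and Sfp78E overlapped, as did those of Sfp78E and Sfp38D. These 3 genes and Acp95EF were the members below the median of all genes.

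Acp95EF was listed at 0.25, the lowest value of the tables, held by 2186 genes in all, which stands for 0 reads. A count of 0 was read as allowing up to 3 reads, the one-sided limit at the 95% level, which is 0.148 CPM over the libraries together, and the two-sided Poisson interval used for the other members reaches 0.183 CPM. Both concern only reads that could be assigned to the gene. In release 6 of the annotation 100% of the exon bases of Acp95EF also belong to Spase22-23, a signal peptidase subunit gene on the other strand whose mean log2 CPM was 5.13. Of the 358 protein-coding genes whose exon bases were all shared with another gene, 345 had no read (96.4%), against 547 of the 8313 genes that shared no exon base (6.58%). The 0 of Acp95EF is therefore given as a listed value and not as a level of its transcript. Of the other members 45 shared no exon base with another gene, although 14 of them lay inside or across the span of one. Sfp78E and Sfp84E shared 19.1% and 3.94% of their exon bases, and the strand setting of the counting is not given in the sources used here.

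By name class, the Acp genes had a median mean log2 CPM of 7.12 with Acp95EF included (range 3.54 to 9.87 for those with reads). The Sfp genes had one of 4.17 (range 2.00 to 9.74), and the medians lie 2.95 apart. Of the 17 Acp genes 11 were above 100 CPM, and of the 28 Sfp genes 6 were. The classes overlapped broadly. Sfp87B, Sfp96F, Sfp60F, Sfp79B and Sfp24Bb were above the median of the Acp genes, while Acp53C14c, Acp76A, Acp29AB, Acp26Ab and Acp95EF were below 5 on the log2 CPM scale.

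Many members lie next to each other in the genome. With up to 2 other protein-coding genes allowed between neighbours, 20 of the 48 members fell into 5 groups, and 28 had no member near them. Of all members 23 (47.9%) were on chromosome arm 2L, which holds 19.1% of the protein-coding genes matched, 8 were on 2R, 8 on 3L and 9 on 3R. The X chromosome, with 15.7% of the protein-coding genes, held 0 members.

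Levels within a group of neighbours ranged from overlapping to far apart. Acp26Aa and Acp26Ab adjoin each other, and Acp26Aa had 22.2 times the CPM of Acp26Ab, whose mean log2 CPM was 3.54 (10.4 CPM, interval 9.08 to 11.9). Sfp26Ac of the same group had 3.80, with an interval that overlapped that of Acp26Ab. In the group of Sfp24Ba, Sfp24Bd, Sfp24Bb, Sfp24Bc and Acp24A4 the range was wider. Acp24A4 had 9.64 and Sfp24Bb 7.98, whereas Sfp24Bd (4.22), Sfp24Ba (4.12) and Sfp24Bc (3.50) were much lower, a range of 78.6 times in CPM. The intervals of Sfp24Bd and Sfp24Ba overlapped.

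The Acp53 group on 2R held Acp53C14a (8.65), Acp53C14b (8.26) and Acp53Ea (7.67) within 1 unit of each other on the log2 scale. Their intervals, which cover counting error only, were apart, and a difference between these genes was not tested. Acp53C14c had 4.61, so that Acp53C14a had 17.3 times its CPM, and Sfp53D had 2.44. The 3 Sfp33A genes that adjoin were closer together, from Sfp33A2 with 3.75 to Sfp33A4 with 5.83, a range of 4.55 times. Between them in level was Sfp33A3 with 4.27. The group with the highest levels was that of the Mst57D genes, where Sfp96F (9.60) lies among Mst57Dc, Mst57Db and Mst57Da. Whether reads were lost or shared between similar members of a group was not tested.

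The members mostly had few exons and encoded small proteins. By the longest annotated protein their median length was 91.5 residues, from 25 in Acp98AB to 912 in Acp36DE, against 386 in the protein-coding genes matched. Proteins of under 150 residues were encoded by 38 members (79.2%), against 14.6% of the protein-coding genes. The largest number of exons in any annotated transcript was 1 or 2 in 43 members (89.6%) and in 37.0% of the protein-coding genes. All 3 Mst57D genes had 1 exon and encoded proteins of 76 residues or fewer.

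**Figure D2:**
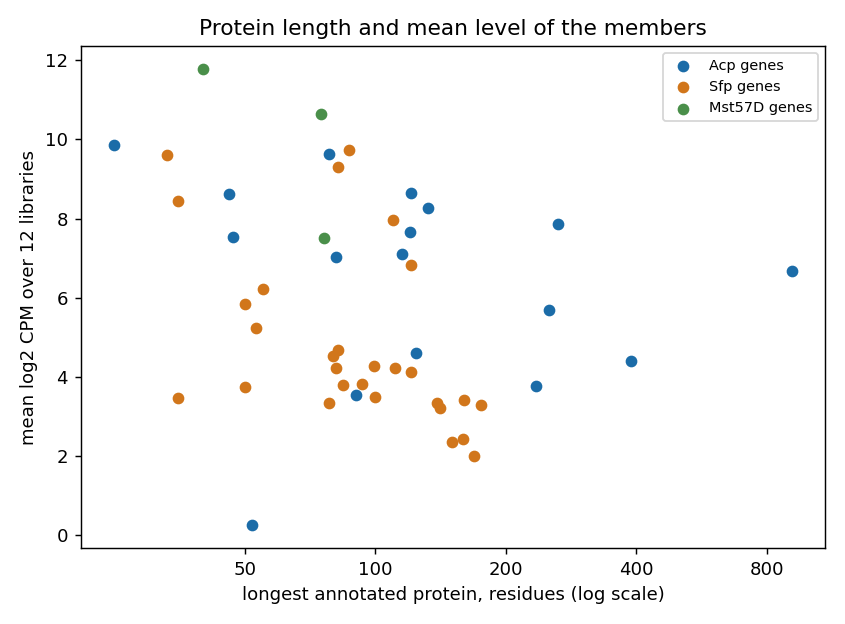
Length of the longest annotated protein in residues (horizontal axis, log scale) against the mean log2 CPM over the 12 libraries (vertical axis) for the 48 seminal fluid protein genes, coloured by name class. Members of 150 residues or more lie between 2.00 and 7.87, and the levels above 8 all belong to shorter proteins.

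The most abundant members encoded short proteins. The 38 members under 150 residues had a median mean log2 CPM of 6.03 and the 10 longer ones one of 3.59. The 38 include Acp95EF (52 residues), whose listed value of 0.25 is not a level of its transcript. Above 100 CPM lay 18 of the 38 and 2 of the 10, the latter being Acp26Aa (264 residues) and Acp36DE. Across the 48 genes, Acp95EF included, Spearman's rho between level and length was -0.38, a description of genes that share the same libraries. The median of all 1836 protein-coding genes under 150 residues was 2.41, and 13.5% of them were above 100 CPM, against 47.4% of the 38 members.

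Other genes of the same pathway were covered by a fixed list. For the sex peptide network, 14 of 14 genes were above 1 CPM, with a median mean log2 CPM of 4.27. SP, the sex peptide gene, had 9.62 (786.9 CPM), a level between those of Acp24A4 and Sfp96F. Dup99B, a related peptide made in the ejaculatory duct, had 10.91 (1916 CPM), and of the 48 members only Mst57Db was higher. The proteins that help sex peptide to bind sperm were at lower levels, among them the lectins lectin-46Ca (5.79) and lectin-46Cb (4.15), the protease homologue CG9997 (4.40), CG17575 (4.65), aqrs (4.02), Sems (3.87) and antr (2.92). Of the 14 genes on the list, only Dup99B and SP were above hdly, which had 7.12. The list was not divided by the sex that makes each product. SPR, the receptor of sex peptide, which acts in neurons of the female reproductive tract, had 1.98 (2.74 CPM, 55 reads over all libraries).

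Among the products of the ejaculatory bulb and duct, 6 of 6 genes were above 1 CPM and the median mean log2 CPM was 8.14. EbpII had 10.86, EbpIII 9.85 and Ebp 9.19, whereas Anp, which encodes the antimicrobial peptide andropin, had 7.09 and Est-6, a secreted esterase, 7.06. Gld was the lowest of the 6 by far, with 3.71 (11.9 CPM). The transcription factor genes prd, needed for the accessory gland to form, Abd-B, needed in the secondary cells of the gland, and dsx, which sets sex-specific traits, had 1.45, 2.84 and 3.85 on the log2 scale, prd below and the others above the median of all genes.

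**Figure D3:**
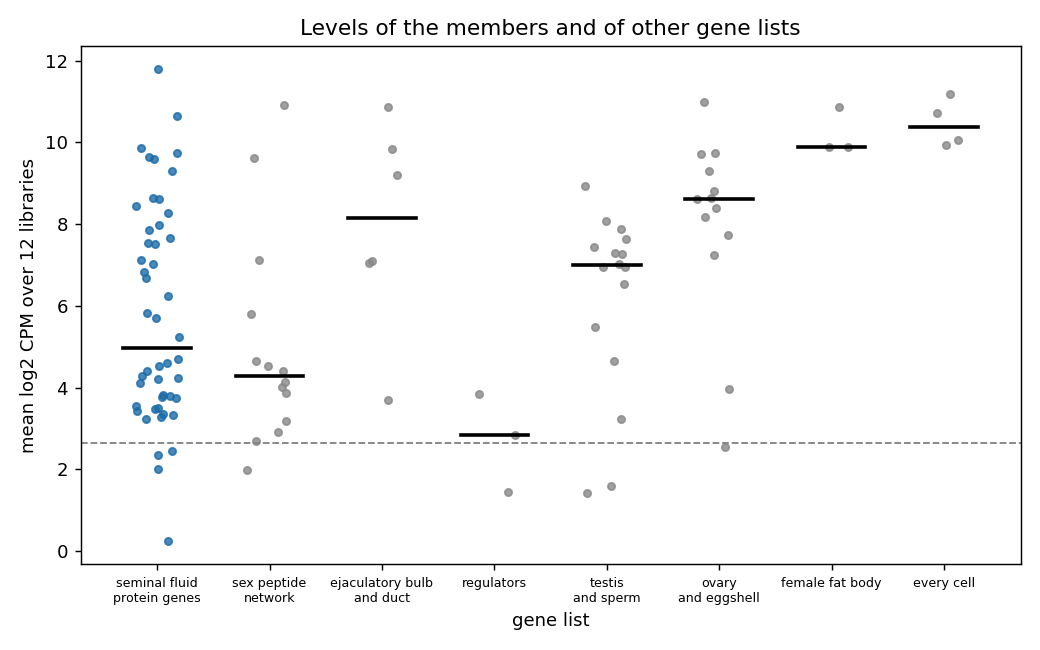
Mean log2 CPM over the 12 libraries (vertical axis) of each gene in the seminal fluid protein genes (blue) and in 7 other gene lists (grey), where each point is a gene, black bars are medians and the dashed line is the median of all genes (2.64). The members with reads spread from 2.00 to 11.79, and the median of all 48 is 4.96.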

How the data were processed

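Poly(A)-primed 3′ libraries of 12 samples were sequenced by the authors with 50 bp reads, aligned to dm3 with STAR, tabulated per gene and compared in edgeR. They were demultiplexed with CASAVA 1.8.2, per the labels. The authors deposited 2 tables of 16997 genes. Of the columns, log2 fold change, likelihood ratio, p-value and FDR hold the authors' own comparisons and were not used. The deposited mean log2 CPM, an average over all 12 libraries that includes a prior count, was identical for each gene in both tables and is the only measurement used. It has no value per sample, so no groups were compared.

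A prior count of 2 per library, the default of the authors' tool, was assumed. The lowest value, 0.25, shared by 2186 genes, then gives the mean library size, and each gene's CPM without the prior count and its reads follow from it. The next 12 values, a number chosen to equal that of the libraries, were shared by 542 genes and gave between 0.92 and 1.11 reads. Whether each value came from a different library was not checked. The recovered reads of all genes summed to 0.587% more than the recovered library total. The recovery was run on counts simulated from the recovered levels with the same prior count and with library sizes set by hand. That run could not test the assumed prior count or the real library sizes. Intervals cover counting error only.

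All 48 members matched release 6 of the annotation by symbol, used for neighbours, exons and protein lengths. The build differs from dm3, so no coordinates are given. Sequences were not used here. Members and lists were chosen with earlier results of these data known. Values are given for members of known role, the 5 highest and 5 lowest, and members near another member; others named were chosen after their values were seen. PebII and PebIII are listed as EbpII and EbpIII, and Peb is Ebp. Python 3.11.15, pandas 2.3.3 and SciPy 1.17.1 were used.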

Additional observations from a re-analysis of the deposited data

How the results depend on the processing

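The median mean log2 CPM of the seminal fluid protein genes was 4.96 and did not depend on which table it was read from. It was 5.23 over the members above 1 on the log2 scale, 7.12 over the Acp genes, 4.17 over the Sfp genes, and 4.93 with the prior count removed, an alternative chosen after seeing the data. The number of members above 1 CPM was 47, also at thresholds of 2 and 0.5 CPM, and 48 with the values as deposited, where the prior count alone puts every gene above 1 CPM. The members' share of all CPM was 1.25%, 1.23% as deposited and 0.90% without Mst57Db. A search for a TATA motif and the features of protein sequence were planned and not run, since no sequences were used here. Leaving out a replicate was not possible with means over all libraries. Neighbours in the order with overlapping intervals lay mainly below 25 CPM. No paired analysis was possible because the values used are means over all libraries.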
